A study of Arabidopsis thaliana with 5 samples.

Results

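The cytochrome P450 genes of Arabidopsis thaliana were examined for binding of TREE1 tagged with green fluorescent protein (GFP), mapped by chromatin immunoprecipitation sequencing (ChIP-seq). Members were the nuclear protein-coding genes whose symbol is CYP, a number, 1 or more letters and a number, and 219 of 27444 nuclear coding genes carried such a symbol. The ethylene group held 2 ChIP libraries, from dark-grown seedlings 3 days old that were given 4 h of 10 ppm ethylene, a gaseous plant hormone, in hydrocarbon-free air. The air group held 1 ChIP library, from seedlings of the same age given 4 h of hydrocarbon-free air. All came from shoot tissue of 1 line that carries a TREE1-GFP transgene driven by the TREE1 promoter, and anti-GFP antibody was used for every ChIP. The genotype label spells the transgene pTREE1:TREE-GFP. The labels do not state whether the line keeps its own TREE1 gene, and a line without the tag was not analysed here. An input library of each treatment entered only through the peak calls of the authors, so the ethylene lists share their input.

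Peak and summit lists were the data used. A member counted as bound in a library when at least 1 summit of that list fell in the window around either gene end, which reached 1000 bp away from the gene and 200 bp into it. The ethylene lists held 9156 peaks (library 1) and 9958 peaks (library 2), and the air list held 8602. Ethylene library 1 was the shallowest, with 5884897 tags kept after duplicate removal, against 9459860 in ethylene library 2 and 9325092 in the air library. The 3 lists were made under run names with another protein's name in them, and the libraries are named here by their sample labels. With 2 ethylene libraries against 1 air library the smallest one-sided p that an exact permutation test can give is 0.333, so no difference between treatments was tested. All counts below describe these 3 libraries, and no label says that the ethylene libraries are from separate seedling batches. Intervals from counting error are not given for gene counts, because neighbouring genes can share a summit. Such intervals served only to label recomputed differences of shares at the end.

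Cytochrome P450 enzymes are heme proteins that use molecular oxygen and electrons from a reductase to oxidise small molecules, in most cases by adding a hydroxyl group. Plants have many of them, numbered by sequence likeness into families (CYP71), subfamilies (CYP71B) and single enzymes (CYP71B20). They make and break down hormones, sterols, carotenoids, waxes, lignin and defence compounds. Families are gathered into clans: clan 71 is called A-type and is the most expanded in plants, and the remaining clans are called non-A-type. Many members lie side by side as tandem copies. Steps in the synthesis or breakdown of abscisic acid, brassinosteroids, gibberellins and jasmonates are run by P450 enzymes, and each of these hormones affects the growth of dark-grown seedlings.

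A smaller share of P450 genes than of all coding genes had a TREE1-GFP summit at a gene end, in every library. Bound members numbered 53 in ethylene library 1 (24.2% of members), 52 in ethylene library 2 (23.7%) and 46 in the air library (21.0%). Of all nuclear coding genes, 36.3% were bound in ethylene library 1, 36.4% in ethylene library 2 and 33.9% in the air library. The difference was therefore -12.07 percentage points in ethylene library 1, -12.63 in ethylene library 2 and -12.87 in the air library. In total 79 members were bound in at least 1 library and 140 (63.9%) in none, while 49.8% of all coding genes were bound in none.

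Among the 219 members, 24 were bound in all libraries, against 21.2% of all coding genes. A further 8 members were bound in both ethylene libraries and not in air (5.94% of all coding genes had this pattern), and 6 were bound in air alone (4.63% of all coding genes). Ethylene library 1 shared 8 members with air alone (4.10% of all coding genes) and ethylene library 2 shared 8 (3.99%). Another 13 members were bound in ethylene library 1 alone (5.07%) and 12 in ethylene library 2 alone (5.29%), the percentages again being those of all coding genes. The 24 bound in all libraries were 11% of members, against 21.2% of all coding genes. In number, 31 members were bound in 1 library alone. The summed share of all coding genes for this is not given here, and its parts are the 5.07%, 5.29% and 4.63% above. For 7 of these 31 a peak of another library overlapped the window although its summit lay outside it. The like share of all coding genes is not given here.

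**Figure D1:**
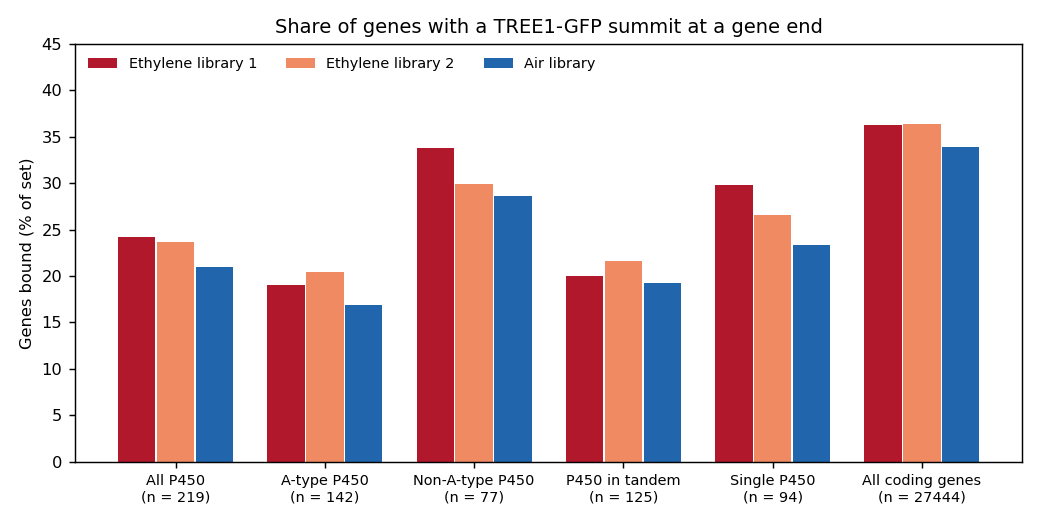
Share of genes bound (vertical axis, percent of each set) in ethylene library 1, ethylene library 2 and the air library, for all 219 P450 genes, A-type and non-A-type members, members in tandem clusters, single members and all 27444 coding genes. The P450 bars lie between 21.0% and 24.2% and the bars of all coding genes between 33.9% and 36.4%; non-A-type members reach 33.8% in ethylene library 1.

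The bound share of non-A-type members was above that of A-type members in each library. Of 77 non-A-type members, 26 (33.8%) were bound in ethylene library 1, 23 (29.9%) in ethylene library 2 and 22 (28.6%) in air. Of 142 A-type members, 27 (19.0%) were bound in ethylene library 1, 29 (20.4%) in ethylene library 2 and 24 (16.9%) in air. A-type minus non-A-type was -14.75 percentage points in ethylene library 1, -9.45 in ethylene library 2 and -11.67 in air. Each type gave 12 of the 24 members bound in all libraries. Among the larger non-A-type clans, clan 72 had 7, 8 and 7 of 18 members bound in ethylene library 1, ethylene library 2 and air, whereas clan 86 had 6, 7 and 5 of 31. Clan 85, which holds the CYP707A and CYP90 enzymes, had 8, 4 and 6 of 20. On chromosome 5, 5, 4 and 4 of 39 members were bound in ethylene library 1, ethylene library 2 and air. On chromosome 3 the numbers were 16, 19 and 18 of 59. Shares of all coding genes by chromosome are not given here, so this contrast is not set against them.

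P450 genes were about as long as other coding genes and stood farther from their neighbours. Their median length was 2054 bp, against 2078 bp for all coding genes, and the summed distance to the neighbouring coding genes on both sides had a median of 2399 bp, against 1855.5 bp. Because a gene with close neighbours can be called through a summit that belongs to a neighbour, the shares were also set out by that distance. Among the 54 members with under 1000 bp in all, 35.2% were bound in ethylene library 1, 29.6% in ethylene library 2 and 24.1% in air, against 43.8%, 42.4% and 41.3% of all coding genes so spaced. Among the 91 members with 3000 bp or more, the shares were 19.8%, 15.4% and 16.5%, against 28.5%, 30.5% and 27.3%. The 74 members in between gave 21.6%, 29.7% and 24.3%, against 36.8%, 36.5% and 33.5%. The P450 share was the lower one in each of these 3 distance classes and in each library.

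A bound call does not say that the summit belongs to the P450 gene alone. For 38 of 53 bound members in ethylene library 1 (71.7%), 35 of 52 in ethylene library 2 (67.3%) and 29 of 46 in air (63.0%), the highest-fold peak of the member also called another coding gene. Counting any summit in the window, at least 1 had the member's own end as its nearest coding gene end for 32 members in ethylene library 1. This held for 31 members in ethylene library 2 and 28 in air. These are 14.6%, 14.2% and 12.8% of the 219 members, against 24.3%, 24.9% and 22.5% of all coding genes under the same rule. Of the 24 members bound in all libraries, 10 had such a summit in each library. Among the 24, 7 had a highest-fold peak that called no other coding gene in any library. The highest-fold peak of 8 was shared with another P450 gene in each library. The median fold enrichment of bound members, the authors' ratio of ChIP tags to local background, was 4.19 in ethylene library 1, 3.43 in ethylene library 2 and 3.12 in air. All bound coding genes had medians of 4.07, 3.44 and 3.14, close to those of the members. Among the tenth of all peaks with the highest fold stood the highest-fold peak of 4 bound members in ethylene library 1 (7.55% of those bound), 8 in ethylene library 2 (15.4%) and 10 in air (21.7%). The same held for 10.9%, 10.9% and 10.7% of all bound coding genes. The members' share was below this in ethylene library 1 and above it in the other libraries, where some members share a peak. In ethylene library 2 CYP72A11 and CYP72A13 had the same peak, and in air CYP72A10 and CYP72A11 did. CYP81D3 and CYP81D4 had the same peak in both.

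**Figure D2:**
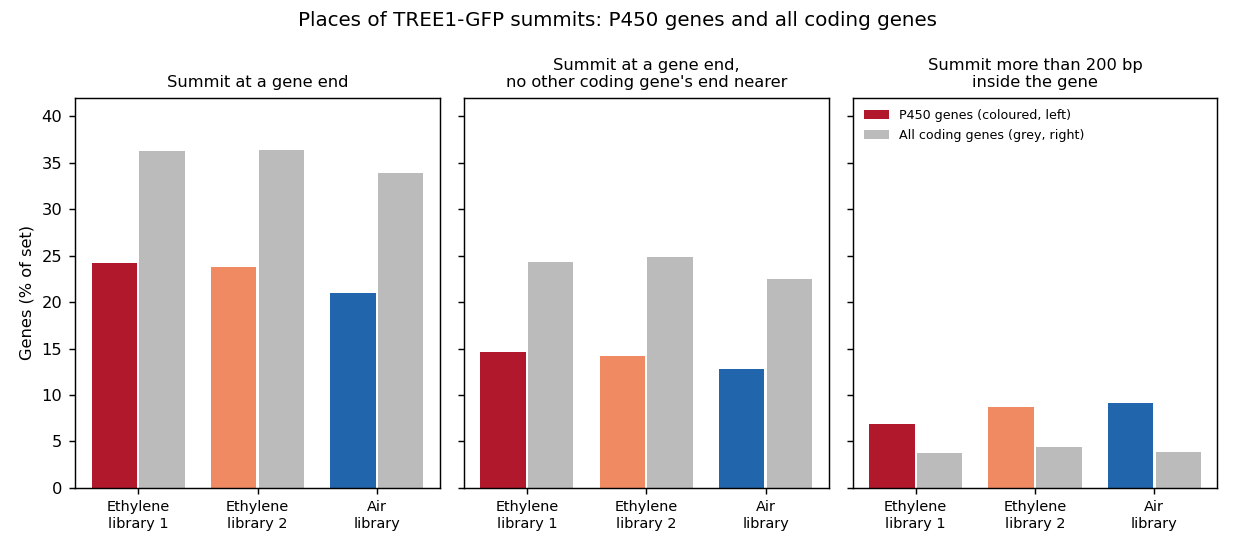
Percent of P450 genes (coloured bars) and of all coding genes (grey bars) with a summit at a gene end, with a summit at a gene end and no other coding gene's end nearer, and with a summit more than 200 bp inside the gene, in ethylene library 1, ethylene library 2 and the air library. P450 bars are lower than grey bars for both kinds of end summit (21.0% to 24.2% against 33.9% to 36.4%, and 12.8% to 14.6% against 22.5% to 24.9%) and higher for summits inside the gene (6.85% to 9.13% against 3.73% to 4.43%).

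The members fell into 40 families and 60 subfamilies, and binding was spread unevenly over them. CYP71, with 48 members the most numerous family, had 11 bound in ethylene library 1, 11 in ethylene library 2 and 9 in air. Within it, subfamily CYP71B gave 10, 11 and 9 of its 32 members, whereas CYP71A gave 1, 0 and 0 of 16. CYP705, with 24 members the next in size and known for triterpene oxidation, had 0 bound in ethylene library 1, 1 in ethylene library 2 and 2 in air. CYP96, whose best-known member oxidises wax alkanes, had 0, 2 and 2 of 12, and CYP76 had 0, 1 and 1 of 8. CYP81 had 6, 4 and 5 of 16 (37.5%, 25% and 31.2%), near or below the 36.3%, 36.4% and 33.9% of all coding genes. CYP72 had 3, 5 and 5 of 9 (33.3%, 55.6% and 55.6%), below that share in ethylene library 1 and above it in the others. CYP710 had 2, 2 and 2 of 4, and CYP707 had 3, 3 and 4 of 4. In 8 families, with 10 members in all, there was no bound member.

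**Figure D3:**
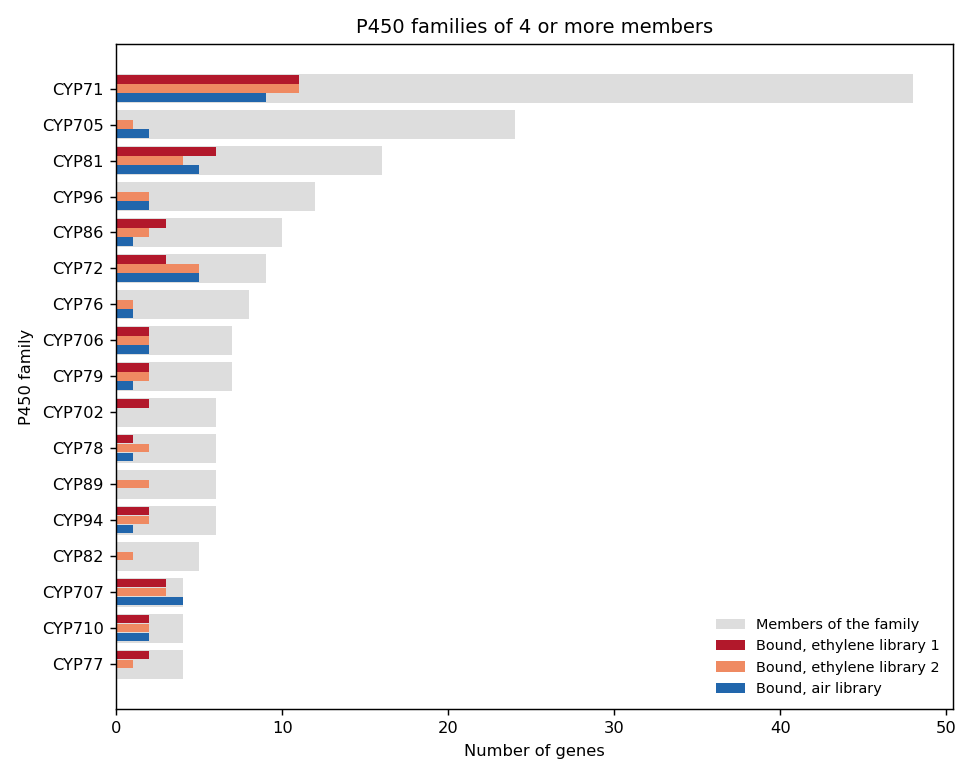
Number of members (grey) and of bound members (ethylene library 1, ethylene library 2 and air from top to bottom) in P450 families with 4 or more members. CYP705 has 0 to 2 of 24 members bound per library, whereas CYP707 has 3, 3 and 4 of 4.

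Abscisic acid is broken down by the CYP707A enzymes, which inactivate the hormone by hydroxylation, and of the families with 4 or more members this one had the largest share bound in each library. CYP707A1 had a fold of 4.75 in ethylene library 1 (107 tags), 5.34 in ethylene library 2 (137 tags) and 4.16 in air (152 tags). Its summits lay 48, 14 and 60 bp outside 1 gene end, and the peak (chr4:10520949-10521537 in ethylene library 1) called no other coding gene. CYP707A3 had folds of 5.16, 3.90 and 4.69 in ethylene library 1, ethylene library 2 and air, again at a peak that called no other coding gene (chr5:18370849-18371370 in ethylene library 1). CYP707A2 had folds of 5.06 and 4.60 under ethylene and 3.26 in air, at a peak (chr2:12494005-12494544 in ethylene library 1) that also called ftsh3, whose end was the farther one. Each of these folds was above the median of its list, which was 3.99 in ethylene library 1, 3.39 in ethylene library 2 and 3.11 in air. Since the medians differ between lists, no fold is compared between treatments here. CYP707A4 was bound in air alone with a fold of 2.79, and a peak of each ethylene library overlapped its window with the summit elsewhere.

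Brassinosteroid, gibberellin and jasmonate enzymes gave a mixed picture, and not every summit given here was nearest to the P450 gene. Summits of CYP90D1 lay nearer to PRA8, those of CYP722A1 nearer to PDF1.4, and that of CYP88A3 inside AT1G05150. Of 4 members on the brassinosteroid list, CYP90D1, a hydroxylase of brassinosteroid precursors, was bound in ethylene library 1 (fold 3.70) and air (2.48), CYP708A3 in ethylene library 2 alone (3.86), and CYP72C1, which inactivates brassinosteroids, and CYP724A1 in none. Of 3 gibberellin members, CYP88A3, an ent-kaurenoic acid oxidase, was bound in ethylene library 1 alone (3.99), CYP714A1, which inactivates gibberellins, in ethylene library 2 (3.07) and air (3.66), and CYP714A2 in none. Among the jasmonate-inactivating CYP94 enzymes, CYP94B3, which hydroxylates jasmonoyl-isoleucine, was bound in all libraries, with folds of 5.64 and 3.21 under ethylene, against 3.46 in air. Its highest-fold ethylene peaks (chr3:17974349-17974833 in library 1) lay at 1 gene end and its highest-fold air peak (chr3:17976459-17977129) at the other, although summits of all libraries also shared 1 region. CYP94B1 was bound in ethylene library 2 alone (3.42), and CYP94B2 and CYP94C1 in none. On the cytokinin and strigolactone list, CYP722A1 was bound in ethylene library 1 (4.00) and air (4.06), CYP711A1, the strigolactone enzyme MAX1, in ethylene library 2 alone (3.59), and the cytokinin trans-hydroxylases CYP735A1 and CYP735A2 in none.

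The defence list held 16 members, of which 4 were bound in ethylene library 1 (25%), 4 in ethylene library 2 (25%) and 2 in air (12.5%). The shares of all coding genes were 36.3%, 36.4% and 33.9%. CYP79C1, of the family whose best-known enzymes turn amino acids into the aldoximes of glucosinolate synthesis, had the highest ethylene library 1 fold of any member, 6.70 (142 tags), with 5.15 in ethylene library 2 (180 tags) and 3.79 in air (241 tags). The peak called no other coding gene (chr1:29856979-29857609 in ethylene library 1). CYP79B2, which makes indole-3-acetaldoxime from tryptophan, and CYP83B1, which passes that aldoxime on to indole glucosinolates, were bound in both ethylene libraries, and no air peak overlapped their windows. CYP79B2 had folds of 3.21 and 3.09 in the ethylene libraries, with summits 64 and 106 bp inside the gene. CYP83B1 had 4.47 and 3.26, at a peak shared with AT4G31490, whose end was the nearer one in ethylene library 1. CYP81F3, an indole glucosinolate hydroxylase, was bound in air alone (2.56), CYP71A12 in ethylene library 1 alone (3.99) and CYP71B6 in ethylene library 2 alone (3.21). The remaining 10, namely CYP79A2, CYP79B3, CYP79C2, CYP79F1, CYP79F2, CYP83A1, CYP81F2, CYP81F4, CYP71A13 and CYP82C2, were bound in none. For CYP79A2 a peak of each library overlapped the window with the summit elsewhere.

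Sterol and carotenoid enzymes were bound in 5 of 7 cases in ethylene library 1 (71.4%), 3 in ethylene library 2 (42.9%) and 4 in air (57.1%). The shares of all coding genes were 36.3%, 36.4% and 33.9%. CYP710A1, a sterol side-chain desaturase, had folds of 5.30 and 4.26 in ethylene libraries 1 and 2, and 4.02 in air, with 225, 160 and 238 tags, at a peak that called no other coding gene (chr2:14538532-14539822 in ethylene library 1). Its tandem copy CYP710A2, also a sterol desaturase, had 4.12, 3.46 and 3.14 at another peak. That peak also called AT2G34480, whose end was the nearer one in ethylene library 2. The second tandem pair, CYP710A3 and CYP710A4, was bound in none. CYP97A3, a carotenoid ring hydroxylase, had 3.89 and 3.44 with ethylene and 3.13 in air, at a peak shared with the coding gene AT1G31790. CYP51G1, a sterol demethylase, was bound in ethylene library 1 (4.21) and air (2.72), and CYP97B3 in ethylene library 1 alone (4.29).

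For lipid polymers and waxes, 5 of 15 members were bound in ethylene library 1 (33.3%), 3 in ethylene library 2 (20%) and 1 in air (6.67%). The shares of all coding genes were 36.3%, 36.4% and 33.9%. CYP86A8, a fatty acid omega-hydroxylase of cuticle formation, was the member bound in all libraries, with folds of 4.22, 3.29 and 4.62 in ethylene library 1, ethylene library 2 and air. The summits lay inside the aquaporin gene PIP1B in each library, and the air peak was a broad one of 968 tags (chr2:18908915-18912820). CYP77A6, an in-chain hydroxylase of cutin monomers, and CYP86C2 were bound in both ethylene libraries with no overlapping air peak. CYP77A6 had folds of 3.74 and 3.02, at a peak shared with APEM9, and CYP86C2 had 3.38 and 3.21, at a peak shared with AT3G26130. CYP86C1 and CYP704B1, which acts in the pollen wall, were bound in ethylene library 1 alone, with folds of 4.19 and 3.62. Their summits lay inside other coding genes, AT1G24545 and AT1G69510. The other 10 were bound in none. Among these were CYP86A1 of root suberin, CYP96A15 of stem wax and CYP703A2 of the pollen wall. For CYP703A2 a peak of each library overlapped the window with the summit elsewhere.

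Lignin and phenylpropanoid members numbered 4, of which CYP98A3, a hydroxylase of the lignin pathway, was bound in ethylene library 1 (4.06) and air (3.26). Its peak was shared with AT2G40860 and CYSA, and CYP98A3 was not the nearest. CYP84A4, which takes part in arabidopyrone synthesis, was bound in air alone (2.85), and CYP98A8 and CYP98A9 of pollen phenolamides in none. In the CYP78A group of organ growth regulators, CYP78A10 was bound in all libraries (5.25 and 3.88 under ethylene, against 3.12 in air), at a peak nearer to SOT16, a glucosinolate sulfotransferase gene. CYP78A6 was bound in ethylene library 2 alone (2.55), and CYP78A5, CYP78A7, CYP78A8 and CYP78A9 in none. Of 13 terpenoid members only CYP71B31 was bound, in all libraries (7.69% of the list in each). The shares of all coding genes were 36.3%, 36.4% and 33.9% in ethylene library 1, ethylene library 2 and air. CYP71B31 had folds of 3.56 and 3.50 in ethylene libraries 1 and 2, and 3.12 in air, at a peak shared with CYP71B32. The 12 unbound terpenoid members include CYP82G1 of homoterpene synthesis, CYP705A5 and CYP708A2 of the thalianol gene cluster, and CYP705A12 and CYP71A16 of the marneral gene cluster.

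Most members lay in tandem, counted as P450 genes with at most 1 other coding gene between neighbours. In all, 125 members formed 37 clusters, and 94 stood alone. Tandem members were bound in 25 cases in ethylene library 1 (20.0%), 27 in ethylene library 2 (21.6%) and 24 in air (19.2%), against 28 (29.8%), 25 (26.6%) and 22 (23.4%) of single members. Tandem minus single was thus -9.79 percentage points in ethylene library 1, -5.00 in ethylene library 2 and -4.20 in air. When no other coding gene was allowed between neighbours, this order turned round in ethylene library 2 (+2.91 points) and in air (+0.96 points). In ethylene library 1 the difference was then -1.64 points. Over the other settings tried it ran from -15.63 to -2.64 points in ethylene library 1. The ranges were -12.71 to -4.75 points in ethylene library 2 and -13.24 to -0.49 points in air. Of the 37 clusters, 19 with 46 members had no bound member in any library. Neither member was bound in 16 of the 21 pairs. Of all coding genes taken singly, 49.8% were bound in no library. No like share for pairs or runs of neighbouring coding genes is given here, so these cluster and pair counts are not set against one. Both members were bound in the same libraries in 2 pairs, CYP710A2 with CYP710A1 and CYP71B31 with CYP71B32. The calls of CYP71B31 and CYP71B32 rested on 1 shared peak in each library. Tandem copies can be near identical in sequence, and how reads that match several copies were treated is not given in the sources used here, so calls within a cluster are uncertain.

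Within the 12 clusters of 4 or more members, bound genes were neighbours in several cases. Because a single summit can call both neighbours, such calls need not be separate sites. In the 8-gene CYP72A cluster on chromosome 3, CYP72A7, CYP72A8 and CYP72A9, the last a gibberellin hydroxylase, were bound in none. CYP72A10, CYP72A11 and CYP72A13 were bound in all libraries, and CYP72A14 and CYP72A15 in ethylene library 2 and air. These calls rest on 2 distinct peaks in ethylene library 1, 4 in ethylene library 2 and 3 in air. CYP72A10 had folds of 5.12 and 4.33 with ethylene and 6.24 in air, the last being the highest air fold of any member, and its peak also called CYP72A11 in each library (chr3:4921773-4922215 in ethylene library 1, chr3:4921775-4922246 in ethylene library 2 and chr3:4921697-4922294 in air). CYP72A11 had 5.12, 4.95 and 6.24, and its highest-fold ethylene library 2 peak was another one, shared with CYP72A13. CYP72A14 and CYP72A15 shared 1 peak in each library that called them, with folds of 3.21 in ethylene library 2 and 2.79 in air.

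In the 6-gene CYP81 cluster on chromosome 4, CYP81D5, CYP81D4 and CYP81D3 were bound in all libraries, CYP81H1 in both ethylene libraries, and CYP81D2 and CYP81D8 in none. CYP81D5 had the smallest sum of fold ranks of all members, with folds of 5.64 and 5.51 under ethylene, against 5.35 in air. Its summits lay 592, 586 and 587 bp outside the gene, inside CYP81D4 (chr4:17562080-17562771 in ethylene library 1). CYP81D4 and CYP81D3 shared 1 peak inside CYP81D3, with folds of 4.47 and 4.96 in ethylene libraries 1 and 2, and 4.23 in air. In the 9-gene CYP71B cluster on chromosome 3, CYP71B20 and CYP71B23 were bound in all libraries, CYP71B22 and CYP71B3 in both ethylene libraries, and CYP71B16, CYP71B17, CYP71B19, CYP71B21 and CYP71B24 in none. CYP71B20 had folds of 4.59 and 3.62 with ethylene and 2.97 in air. CYP71B23 was the single member of the 24 whose summits in the 3 libraries did not fall in 1 shared region.

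Other clusters were sparse or empty. The cluster of CYP706A4, CYP706A5, CYP706A6 and CYP706A7 on chromosome 4 was bound at the first pair in all libraries. Its second pair was bound in none. CYP706A4 had a fold of 3.48 in ethylene library 1, at a peak shared with AT4G12290. Its folds of 3.47 in ethylene library 2 and 2.96 in air came from another peak, with the summit inside CYP706A5. In ethylene library 2 and air the calls of both genes rested on that 1 peak. The 8-gene cluster of CYP702A2 to CYP702A6, with CYP705A1 to CYP705A4 between, was bound in ethylene library 1 alone, at CYP702A5 and CYP702A6 through 1 peak (fold 3.53). In the 7-gene cluster of CYP71B25 to CYP71B37, CYP71B26 was bound in ethylene library 1 and air. CYP71B34 and CYP71B35 were bound in ethylene library 2 through 1 peak. In the cluster of CYP71B2 to CYP71B7, CYP71B2 and CYP71B28 were bound in ethylene library 1 and air, through 1 peak in each library. CYP71B7 was bound in ethylene library 2 alone and CYP71B29 in none. CYP705A18 was the bound member of the 7-gene cluster CYP705A15 to CYP705A23, in air, and CYP705A33 that of the cluster CYP705A28 to CYP705A33, in ethylene library 2 and air. No member was bound in the clusters CYP71A26 to CYP71A21 (6 genes), CYP76C4 to CYP76C3 (4 genes) and CYP96A9 to CYP96A12 (4 genes).

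**Figure D4:**
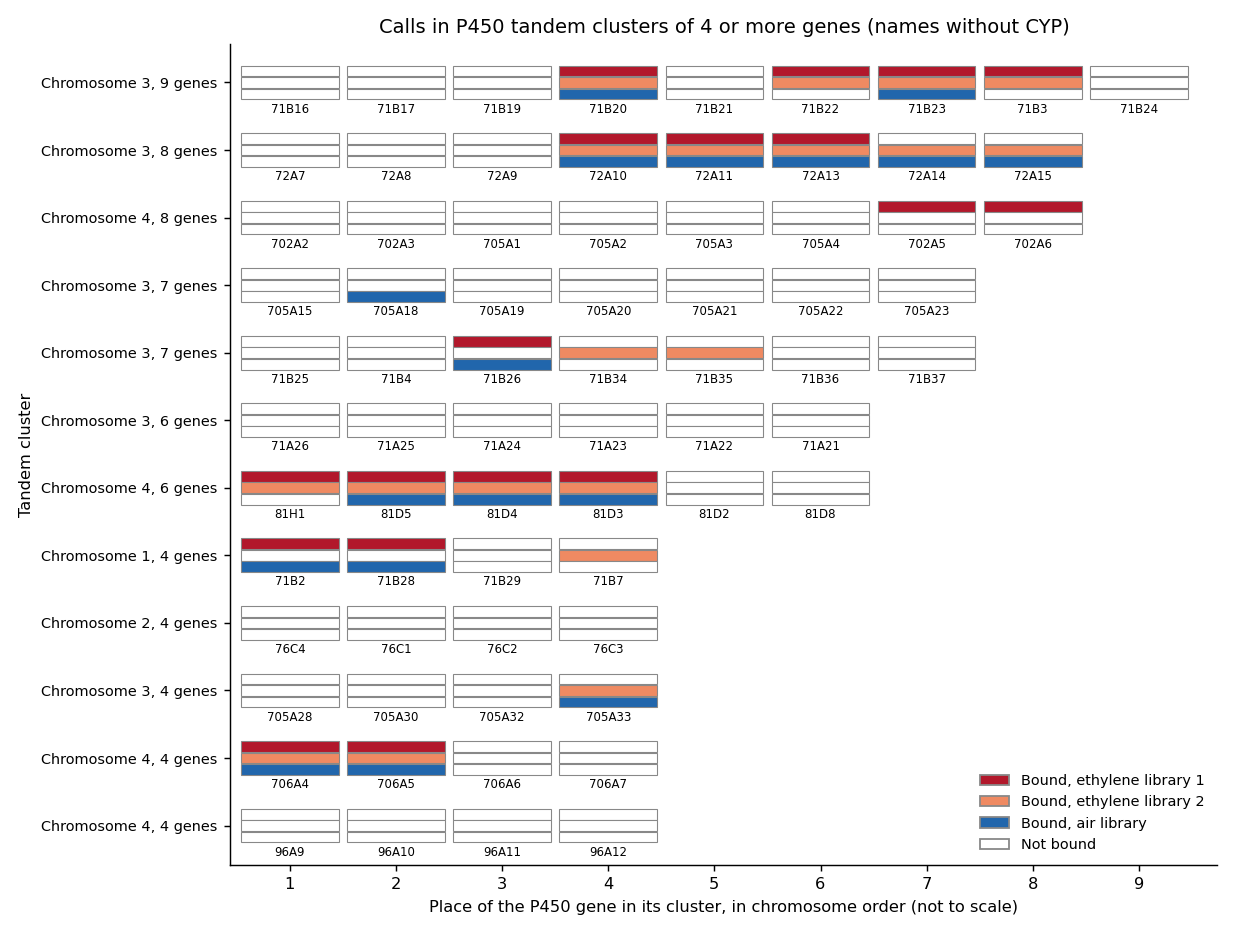
Calls in the 12 tandem clusters of 4 or more P450 genes, 1 row per cluster and 1 column per gene in chromosome order, not to scale; the stripes in each box stand for ethylene library 1, ethylene library 2 and air from top to bottom, and a filled stripe means bound. Filled boxes sit next to each other in the CYP72A, CYP81 and CYP706A clusters, and 3 clusters are empty throughout. A single peak can fill the stripes of both neighbours, as for CYP81D3 and CYP81D4 in each library.

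By the sum of fold ranks over the libraries, the 10 leading members bound in all libraries were CYP81D5, CYP72A11, CYP79C1, CYP72A10, CYP707A1, CYP710A1, CYP707A3, CYP81D3, CYP81D4 and CYP707A2. Thus 3 of these 10 were abscisic acid hydroxylases, and 5 lay in the CYP72A or CYP81 cluster and shared peaks with other members or lay inside them. CYP79C1, CYP707A1, CYP707A3 and CYP710A1 had a peak of their own in each library. In families of 5 or more, leading members not yet given included CYP705A33 and CYP96A4. CYP705A33 had folds of 3.79 in ethylene library 2 and 3.60 in air, with summits nearer to NFU4. CYP96A4 had 4.06 and 3.19, with summits inside AT5G52330. CYP76G1 had 2.49 in ethylene library 2, with the summit inside AT3G52960, and 2.91 in air. CYP89A5 and CYP82C4, an enzyme of iron-mobilising coumarin synthesis, each had 3.06 in ethylene library 2 alone. The CYP82C4 summit lay 881 bp away and nearer to AT4G31930.

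**Figure D5:**
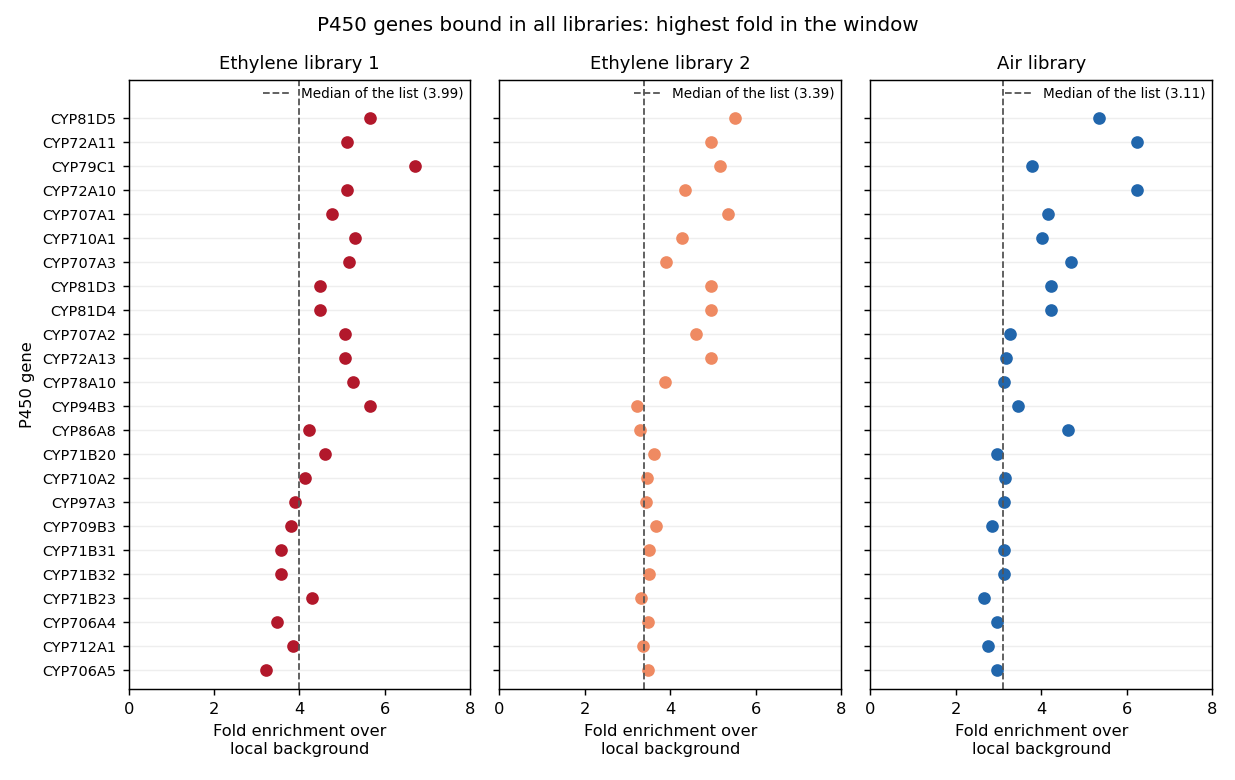
Highest fold enrichment in the window (horizontal axes, linear scale) of the 24 members bound in all libraries, in order of summed fold rank, with the median of each whole list as a dashed line (3.99 in ethylene library 1, 3.39 in ethylene library 2 and 3.11 in air). CYP79C1 is highest in ethylene library 1 (6.70), CYP81D5 in ethylene library 2 (5.51), and CYP72A10 and CYP72A11 in air (6.24).

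The 8 members bound in both ethylene libraries and not in air had a summit of both libraries in 1 shared region in every case, and for 6 no air peak overlapped the window. A peak overlapped the window of 39.8% of all coding genes in ethylene library 1, 40.2% in ethylene library 2 and 38.5% in air. How many of all coding genes were bound in both ethylene libraries with no overlapping air peak is not given here. In order of summed rank the 6 were CYP83B1, CYP709B2, CYP77A6, CYP86C2, CYP71B22 and CYP79B2. CYP709B2 had folds of 4.32 and 2.97 in the ethylene libraries, with summits 169 and 135 bp inside the gene (chr2:19288985-19289513 in library 1). CYP71B22 had 4.01 and 2.54, at a peak shared with CYP71B23. All 6 had lower folds in ethylene library 2 than in ethylene library 1, as the medians of the lists do. For CYP71B3 and CYP81H1 an air peak overlapped the window.

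With a minimum score of 100 (the authors' score, 10 times the negative log10 of p), 20 members remained bound in ethylene library 1 (15.7% of all coding genes passed), 19 in ethylene library 2 (16.2%) and 17 in air (13.1%). At that score 12 members were bound in all libraries, and 0 were bound in both ethylene libraries without air. Shares of all coding genes with these patterns at that score are not given here, so neither count is set against them. The 5 members bound in air with no overlapping ethylene peak were CYP705A18 (fold 3.30, 59 tags), CYP84A4 (2.85, 135 tags), CYP96A1 (2.72, 133 tags), CYP71B5 (2.64, 90 tags) and CYP81F3 (2.56, 150 tags). Of these, CYP705A18 alone was above the air median of 3.11. Each lay nearest to its own gene and called no other coding gene. How many of all coding genes were bound in air with no overlapping ethylene peak is not given here.

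Inside gene bodies the order of P450 genes and all coding genes was the other way round. A summit more than 200 bp inside the gene was present in 15 members in ethylene library 1 (6.85%), 19 in ethylene library 2 (8.68%) and 20 in air (9.13%). The shares of all coding genes were 3.73%, 4.43% and 3.82%. Such a summit was present in any library for 25 members and in all libraries for 10, against 1.60% of all coding genes in all libraries. The 10 were CYP703A2, CYP707A3, CYP78A6, CYP81D4, CYP81D5, CYP81F3, CYP81H1, CYP86A7, CYP86A8 and CYP89A9, which were named after their values were seen. Together with the end windows, 131 members had no summit in any library. Shares of all coding genes for the counts of 25 and 131 are not given here.

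Of these 10, CYP703A2 and CYP86A7, fatty acid hydroxylases, were bound at their ends in no library. CYP703A2 had inner folds of 4.28 and 3.03 under ethylene, against 3.07 in air, with 154, 182 and 388 tags, and CYP86A7 had 5.21, 3.40 and 3.19. CYP81H1 had the highest inner ethylene library 2 fold, 6.46, with 5.10 in ethylene library 1 and 3.34 in air, so its absence from the air list holds for its ends and not for its body. CYP81F3, bound at an end in air alone, likewise had inner summits in every library, with folds of 3.93 and 3.29 in ethylene libraries 1 and 2, and 4.26 in air. CYP89A9, which acts in chlorophyll breakdown, had 3.59, 2.61 and 3.02. By subfamily, 4 of 5 CYP86A, 3 of 6 CYP78A and 3 of 4 CYP707A members had an inner summit in at least 1 library. In CYP71B the number was 2 of 32. These subfamilies were picked after their values were seen, and no such share of all coding genes is given here.

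A further 15 coding genes are P450 genes known by another symbol, with a CYP name of the same form as a synonym. They were bound in 7 cases in each library (46.7%, against 36.3%, 36.4% and 33.9% of all coding genes), and 5 were bound in all libraries (33.3%, against 21.2%), each of them a brassinosteroid or gibberellin enzyme. BR6OX2, a late enzyme of brassinosteroid synthesis, had folds of 5.03 and 4.33 with ethylene and 3.42 in air, and ROT3 had 4.64, 3.86 and 2.56. DWF4, which runs an early and limiting step of brassinosteroid synthesis, had 3.96, 3.72 and 2.51. BAS1, which inactivates brassinosteroids, had 4.57, 3.06 and 3.62, and KAO2, a gibberellin synthesis enzyme, had 2.75, 3.12 and 2.63. GA3, the ent-kaurene oxidase, was bound in both ethylene libraries (5.23 and 2.89) with no air peak overlapping, CPD in ethylene library 1 (4.16) and air (2.62), and C4H in ethylene library 2 (3.53) and air (4.42). PAD3, HPL1, TT7, UNE9, FAH1, BR6OX1 and LUT1 were bound in none, although a peak of each library overlapped the window of FAH1 with the summit elsewhere. With these genes the set was 234, of which 60 were bound in ethylene library 1 (25.6%), 59 in ethylene library 2 (25.2%) and 53 in air (22.6%). AOS, the jasmonate synthesis enzyme also named CYP74A, has no final number in that name, and was bound in all libraries with folds of 4.93 and 3.60 under ethylene, against 3.18 in air.

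A list of 13 partner genes held the P450 reductases and cytochrome b5 genes, whose proteins pass electrons to P450 enzymes, and the membrane steroid-binding proteins and their relatives, which are not known as electron donors. Of the 13, 6 were bound in ethylene library 1 (46.2%), 6 in ethylene library 2 (46.2%) and 9 in air (69.2%), against 36.3%, 36.4% and 33.9% of all coding genes. In all libraries 4 were bound (30.8%, against 21.2%). The cytochrome P450 reductases ATR1 and ATR2 were bound in ethylene library 1 and air (3.70 and 3.17) and in ethylene library 2 and air (2.97 and 2.73). CBR, a cytochrome b5 reductase, was bound in ethylene library 1 (4.16) and air (3.32). The cytochrome b5 genes CB5-B, CB5-C and CB5LP and the membrane steroid-binding relative MAPR4 were bound in all libraries, with CB5-B folds of 3.73 and 3.29 in ethylene libraries 1 and 2, and 2.76 in air. CB5-C lies beside CYP78A6, and in ethylene library 2 a single peak called both.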

How the data were processed

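The submitters' processing notes name BWA as a tool and TAIR10 as the build. Per the file headers, MACS 1.4.2 made 1 peak list for every ChIP library with the matching input as control. Its settings were 1e-05 for p, 1.19e+08 for the genome size, 300 for the band and 50 bp for the tag, and it kept 1 tag at a position. Duplicates were 53.7% and 48.6% of tags in the ethylene libraries and 49.7% in air, and MACS set the fragment at 71 and 62 bp for ethylene and 79 bp for air, per the file headers. Duplicate tags are not independent molecules. Tag numbers of peaks are counts as the authors deposited them, with no scaling. Fold enrichment is the authors' ratio to local background, the deposited score is 10 times the negative log10 of p, FDR is the authors' percent, and summit height is a deposited pileup signal, per the file headers. The air list's run name is marked as replicate 2, and its group has no other ChIP library here.

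From these, gene calls, families, tandem clusters, distances and ranks were computed in Python 3.11.15 (pandas 2.3.3, numpy 2.4.6 and, for figures, matplotlib 3.10.9). Gene names and positions came from a RefSeq table of TAIR10.1, whose positions are not printed. As a check of these positions, summits were shifted in 100 bp steps to at most 2000 bp: unshifted summits gave the lowest share within coding genes for 15 of 15 library and chromosome pairs. The calling step was tested on simulated data. That table holds no strand or sequence, so the window covers either gene end, and no sequence or motif is given. Pseudogenes were left out of the members (6 symbols). Of 100 entries on the role lists, 80 were members, 15 were other genes by synonym, 2 were synonyms of members and 3 had no match.

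Members, lists and comparisons were chosen with earlier results of these data known. Named genes were the 10 members that lead by summed fold rank among those bound in all libraries, those bound in both ethylene libraries with no overlapping air peak, those bound in air with no overlapping ethylene peak, role list members, clusters of 4 or more, and the leading member of each family of 5 or more. Genes named outside this rule were chosen after their values were seen. Alternatives were a score minimum, lists of equal length, other windows, any overlap of a peak, members by synonym, the tandem gap and leaving out an ethylene library.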

Additional observations from a re-analysis of the deposited data

How the results depend on the processing

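Of the recomputed values, 88 kept their direction and stayed within a limit. For counts the limit was 1.5 times. For differences of shares it was the 95% counting interval of the difference (from Wilson intervals), which is wide. That interval takes genes as independent, although neighbouring genes can share a summit, so it is a loose label and not a test. Tandem minus single members in ethylene library 1 kept that label when it went from -9.79 to -1.64 points. Another 12 moved and 2 reversed. Lists of equal length, any overlap of a peak, whole genes and members by synonym moved no count of bound members by over 1.5 times. A score of at least 100 gave 20, 19 and 17 bound members in ethylene library 1, ethylene library 2 and air. At that score 12 were bound in all libraries, 0 in both ethylene libraries and not air, and 2 in air alone. No share of all coding genes stands beside these pattern counts. Differences from all coding genes were -6.52, -7.48 and -5.34 points in ethylene library 1, ethylene library 2 and air. A window of 500 bp outside left 40, 36 and 32 members bound in ethylene library 1, ethylene library 2 and air, and 5 bound in both ethylene libraries and not air. Leaving out 1 ethylene library in turn gave 20 to 21 members bound in the remaining ethylene library and not in air, and 14 to 14 bound in air and not in it, so these 2 counts depend on there being 2 ethylene libraries. With no other coding gene between tandem neighbours, tandem minus single members turned to 2.91 points in ethylene library 2 and 0.96 in air and was -1.64 in ethylene library 1; the cause was not tested. With whole genes that difference was -15.63, -12.71 and -13.24 points in ethylene library 1, ethylene library 2 and air, with any overlap -15.37, -9.51 and -10.84, and with a 500 bp window -7.14, -4.75 and -0.49, so its size is not settled by these data. Of the calls, 3, 3 and 5 in ethylene library 1, ethylene library 2 and air rested on the outermost 200 bp of the window, and 200 bp more would have added 4, 2 and 3. A window at the gene start alone was not run, as no strand was used here. No paired analysis was possible because the single air library carries no replicate number shared with both ethylene libraries and no result comes from a test. Ethylene library 1 kept the fewest tags, and the part of depth in the calls was not tested.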
